A study of Mus musculus with 10 samples.

Results

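The let-7 family and its relative miR-98 were followed through 10 probes on a single-colour array that carried 1040 probes with mouse miRNA names. The members were taken by the name printed for each probe: mmu-let-7a, mmu-let-7b, mmu-let-7c, mmu-let-7d, mmu-let-7e, mmu-let-7f, mmu-let-7g, mmu-let-7i, mmu-miR-98 and mmu-let-7d*, where mmu stands for mouse and the asterisk of the older nomenclature marks the minor strand of a hairpin. The arrays were hybridised with total RNA from mIMCD-3, a murine cell line that derives from collecting duct of the inner medulla. Of the 10 samples, 5 had been treated with 100 nM aldosterone, the mineralocorticoid hormone of the distal nephron, and 5 with its ethanol vehicle. All 10 shared the same preparation: 70000 cells were seeded on transwell filters, grown to confluence and then kept for 24 h in hormone-free medium. The length of treatment is not given in the sources used here, and all samples come from 1 cell line. Sample titles of both groups begin with the same 5 codes (120P20, 1117P20, 107P19, 231 and 232), so that each code has 1 aldosterone and 1 vehicle array; replicates 1 to 5 follow that order. What a code stands for is not stated, and the labels do not say whether samples were separate cultures; p-values therefore cover the spread between these samples alone, and that spread may be technical.

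let-7 miRNAs are made from several hairpin genes and repress shared targets, which they recognise mainly through the seed, bases 2 to 8 of the mature strand. They are low in stem cells, where LIN28 blocks the maturation of their precursors, and abundant in differentiated cells. Known targets include RAS genes, HMGA2 and MYC. In the collecting duct, aldosterone acts through the mineralocorticoid receptor on sodium transport, and the study asked whether it also alters miRNA content.

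The members resemble each other closely, as their mature sequences show. All 10 matched an entry of RefSeq (build GRCm38.p6), 9 as the 5p arm and let-7d* as the 3p arm, and each is 22 bases long. Capitals mark the seed, which was GAGGUAG in 9 of the 10.
let-7a: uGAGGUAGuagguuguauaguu
let-7b: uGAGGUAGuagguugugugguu
let-7c: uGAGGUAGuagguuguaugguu
let-7d: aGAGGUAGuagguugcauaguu
let-7e: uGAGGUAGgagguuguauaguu
let-7f: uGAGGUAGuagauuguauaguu
let-7g: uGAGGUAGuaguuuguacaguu
let-7i: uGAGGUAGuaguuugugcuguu
miR-98: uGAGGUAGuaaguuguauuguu
let-7d*: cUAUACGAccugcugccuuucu

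Counted from 1 at the 5′ end and with the base of let-7a first, let-7c differs from let-7a only by A19G, let-7e by U9G and let-7f by G12A. A pair of substitutions sets apart let-7b (A17G and A19G), let-7d (U1A and U16C), let-7g (G12U and U18C) and miR-98 (G11A and A19U). let-7i is the most distant with 4, G12U, A17G, U18C and A19U. How much RNA of one member the probe of another binds is not known for this array. The mature sequences of let-7a, let-7c and let-7f each occur in 2 hairpins, which 1 probe cannot separate. In the RefSeq table the hairpins of let-7a, let-7d and let-7f stand next to each other (Mirlet7a-1, Mirlet7f-1 and Mirlet7d). So do those of let-7b and let-7c (Mirlet7b and Mirlet7c-2) and those of let-7f and miR-98 (Mirlet7f-2 and Mir98). The hairpins of let-7e, let-7g and let-7i had no neighbour of the family, nor had Mirlet7a-2 and Mirlet7c-1.

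All members except let-7d* were detected on all 10 arrays, that is, both of a probe's spots lay more than 2 SD above the mean of the blank spots; 243 of the 1040 mouse probes reached this. let-7d*, which carries a different seed, was detected on 2 aldosterone and 4 vehicle arrays. Duplicate spots of a member on 1 array differed by a median CV of 2.48% (let-7c) to 16.2% (miR-98) among the 9 fully detected members and by 28.4% for let-7d*. The arrays differed in overall brightness: the median signal above blank of the probes detected on all arrays was 15.2 to 57.5 intensity units on aldosterone arrays and 9.47 to 33.3 on vehicle arrays, and it was higher on the aldosterone array in 5 of 5 same-code pairs. The epithelial markers miR-200a, miR-200b and miR-429 were detected on all 10 arrays and miR-200c and miR-141 on 2 and 1. Blood (miR-142-3p, miR-142-5p and miR-223), muscle (miR-1, miR-133a and miR-133b), fibroblast (miR-143 and miR-145) and neuronal (miR-124) markers were detected on none, and miR-451 of red cells and miR-122 of liver on 1 each. The endothelial marker miR-126-3p was detected on 9 arrays and the neuronal marker miR-9 on 8.

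No member passed the test for a change with aldosterone. The values below are intensity units above background after quantile normalization, and changes are on the log2(intensity + 50) scale, which understates the change of dim probes. By limma with Benjamini-Hochberg adjustment over all 430 tested probes, 0 of 10 members passed an adjusted p of 0.05 in either direction, as did 0% of all tested probes, and none had an unadjusted p under 0.05, which 1.86% of all tested probes had. With the title code as a block the count was again 0 of 10 at either threshold, beside 0% and 4.65% of all tested probes. The SEs, intervals and p-values given for single probes below come from the fit without this block. The median SE of the members was 0.126 in that fit and 0.087 with the block, so the printed intervals are mostly wider than those of a paired fit. There were 6 members above 0 and 4 below, where 52.3% of all tested probes lay above. The median log2 change was 0.04 over the members and 0.002 over all tested probes.

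**Figure D1:**
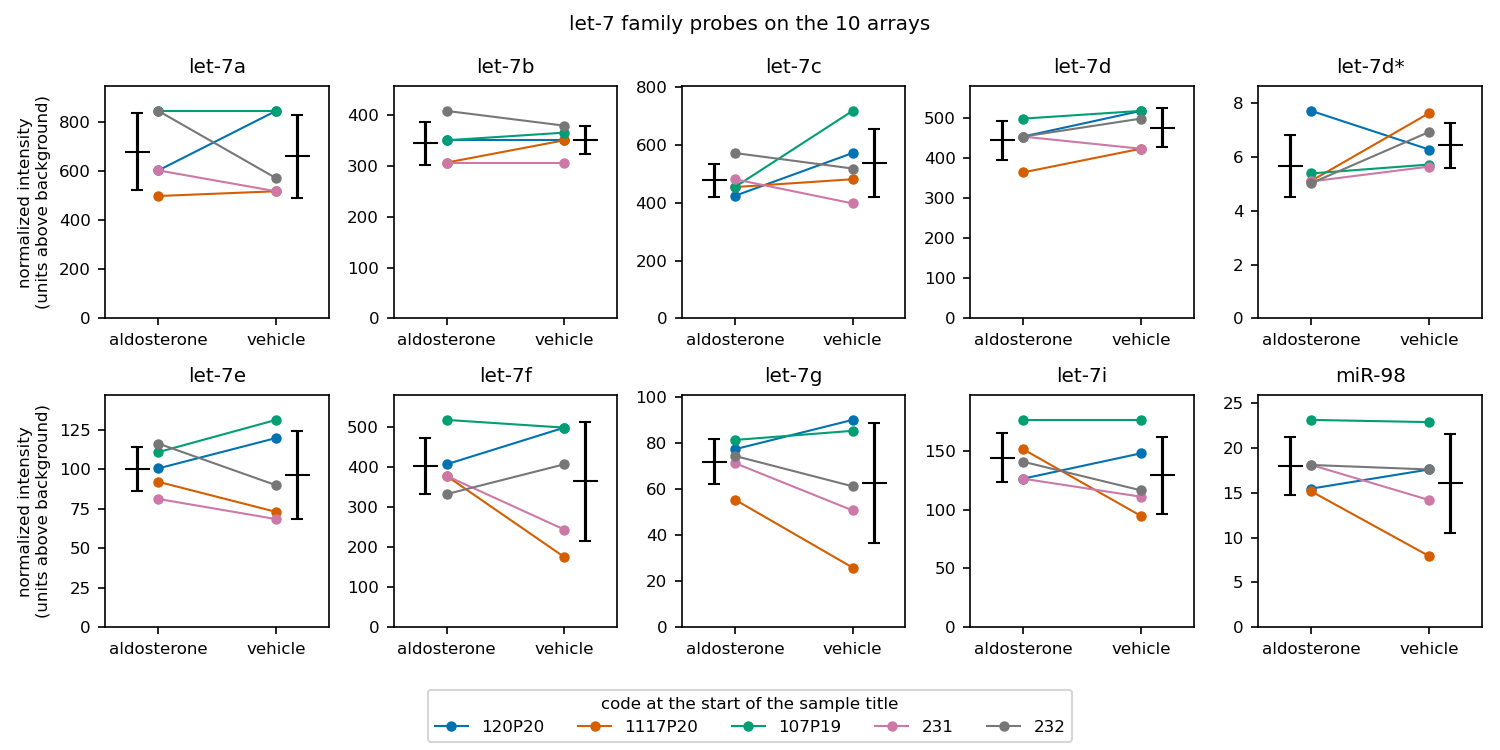
Normalized intensity of each member (vertical axes, units above background, each starting at 0) on the aldosterone arrays (left) and vehicle arrays (right); lines join the arrays of a title code, and black bars give the mean and SD of 5 arrays. The groups overlap in all 10 panels, and they were apart in 0% of all 430 tested probes, so overlap is not particular to the members. The vehicle array of code 1117P20 is the lowest of all arrays for let-7f, let-7g, let-7i and miR-98.

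let-7f, whose hairpins lie beside those of let-7a and let-7d at one site and of miR-98 at another, had the largest log2 change among the members with the offset of 50 and quantile normalization. This did not hold with every background or scaling. With an offset of 10 the log2 change was 0.25 for let-7g and 0.23 for let-7f. In the authors' deposited values, which also differ in scaling, it was 0.79 for let-7g, 0.71 for let-7i, 0.70 for miR-98 and 0.69 for let-7f. With the blank mean subtracted it was -0.38 for let-7d*, 0.35 for let-7g, 0.26 for miR-98 and 0.25 for let-7f. In the order of the codes 120P20, 1117P20, 107P19, 231 and 232, let-7f stood at 408, 379, 519, 379 and 333 on the aldosterone arrays and at 499.7, 176, 499.7, 245 and 408 on the vehicle arrays. The groups overlapped: 2 vehicle arrays, those of 1117P20 and 231, lay under every aldosterone array, and the other 3 vehicle arrays lay within the aldosterone range. The mean was 404 ± 69.8 with aldosterone and 366 ± 149 with vehicle (SD, n = 5 each), a log2 change of 0.20 (SE 0.26, 95% interval -0.38 to 0.78; limma adjusted p = 0.9375). It was higher in 3 of 5 pairs. Without the vehicle array of 1117P20 the log2 change was 0.003, and without the other single arrays it ran from 0.10 (no vehicle array of 231) to 0.32 (no vehicle array of 120P20).

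let-7g, transcribed from a gene with no let-7 neighbour, showed the same low arrays. It had intensities of 77.2, 55.4, 81.2, 71.2 and 74.3 on the aldosterone arrays and 89.9, 25.9, 85.2, 50.7 and 61.2 on the vehicle arrays. The vehicle arrays thus spread on both sides of the aldosterone arrays, with 2 above all of them and 2 below all of them. Its log2 change was 0.14 (SE 0.16, 95% interval -0.21 to 0.50; limma adjusted p = 0.9375), higher in 3 of 5 pairs. let-7i, whose gene also has no let-7 neighbour, measured 126, 151, 176, 126 and 141 with aldosterone against 148, 94.6, 176, 111 and 116 with vehicle. Its 3 lowest values were all vehicle arrays, and the arrays of code 107P19 were tied at the top. The log2 change was 0.13 (SE 0.12, interval -0.15 to 0.41; limma adjusted p = 0.9375).

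Without the vehicle array of 1117P20 the log2 change was 0.01 for let-7g and 0.06 for let-7i.

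miR-98, which carries the let-7 seed under another name, was at 15.4, 15.1, 23.1, 18.1 and 18.1 on the aldosterone arrays and at 17.6, 7.94, 22.8, 14.2 and 17.6 on the vehicle arrays. Only the 1117P20 and 231 vehicle arrays lay under the aldosterone range. It was higher with aldosterone in 4 of 5 pairs, with a log2 change of 0.04 (SE 0.06, interval -0.09 to 0.18; limma adjusted p = 0.9375). let-7e, which lies in a cluster with miR-125a, stood at 101, 92.1, 111, 81.2 and 116 on the aldosterone arrays and at 119.8, 73.1, 131, 68.5 and 89.9 on the vehicle arrays. Here too the vehicle arrays held both extremes. It averaged 100.2 ± 14.1 on aldosterone arrays and 96.5 ± 27.9 on vehicle arrays (SD, n = 5 each; log2 change 0.05, SE 0.13; limma adjusted p = 0.9566).

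The arrays did not separate by treatment for let-7a, let-7b, let-7c or let-7d either. let-7a had 604, 499.7, 847, 604 and 847 on the aldosterone arrays and 847, 519, 847, 519 and 573 on the vehicle arrays, with the same highest value on 2 arrays of each group. The mean was 680.4 ± 158 with aldosterone and 661 ± 171 with vehicle (SD, n = 5 each), a log2 change of 0.04 (SE 0.19, interval -0.39 to 0.48; limma adjusted p = 0.9566). let-7c had 424, 455, 455, 482 and 573 on the aldosterone arrays and 573, 482, 718, 398 and 519 on the vehicle arrays, so that both the highest and the lowest value came from the vehicle group. let-7c averaged 478 ± 56.8 on aldosterone arrays and 538 ± 119 on vehicle arrays (log2 change -0.14, SE 0.14, interval -0.44 to 0.17; limma adjusted p = 0.9375), let-7d 446 ± 49.1 and 477 ± 48.9 (-0.09, SE 0.08, interval -0.28 to 0.10; adjusted p = 0.9375), and let-7b 344 ± 41.8 and 350.2 ± 27.3 (-0.03, SE 0.08, interval -0.20 to 0.15; adjusted p = 0.9566).

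let-7d measured 455, 365, 499.7, 455 and 455 on the aldosterone arrays and 519, 424, 519, 424 and 499.7 on the vehicle arrays. It was lower with aldosterone in 4 of 5 pairs, all but code 231, yet the groups overlapped. Its minor strand let-7d*, near background throughout, was also lower in 4 of 5 pairs, averaging 5.67 ± 1.15 on aldosterone arrays and 6.45 ± 0.84 on vehicle arrays (SD, n = 5 each; log2 change -0.02, SE 0.02; limma adjusted p = 0.9375). The within-array difference of let-7d* from let-7d was -3.15 ± 0.15 with aldosterone and -3.22 ± 0.14 with vehicle (log2, SD, n = 5 each), which differ by 0.07 (two-sided exact permutation test over 252 splits, p = 0.4683); without array normalization the groups differed by -0.433. Since let-7d* lay far under the added offset of 50 on every array and was detected on 6 of 10, this difference mostly holds the offset and let-7d, and neither it nor its p shows how the strands compare. No member was higher in all 5 pairs and none was lower in all 5, where 3.49% and 2.79% of all tested probes were. Quantile normalization gave several arrays the same value for the bright members, so that let-7a, let-7b and let-7d had 5 distinct values each over 10 arrays, and 4 of the 50 same-code comparisons of members were ties.

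**Figure D2:**
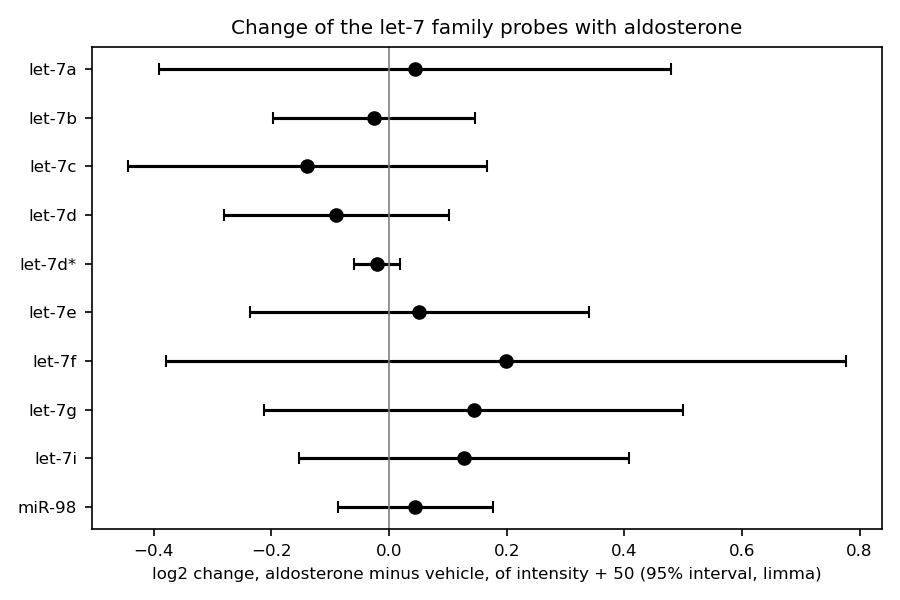
Log2 change of each member (horizontal axis, aldosterone minus vehicle, on the log2(intensity + 50) scale) with its 95% interval from limma over 5 arrays per group. The fit had no block for the title code. All 10 intervals hold 0, and the widest is that of let-7f, from -0.38 to 0.78.

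Directions depended on how the arrays were scaled. Above blank and before any scaling, 9 of the 10 members were brighter on the aldosterone array in 4 of 5 pairs and let-7d* in 3; none was brighter in all 5, as 35.8% of all tested probes were. let-7g, for example, read 80.4, 40.7, 238, 65.0 and 64.0 units above blank on the aldosterone arrays and 87.2, 10.2, 170.3, 23.4 and 41.3 on the vehicle arrays. The array of code 107P19 was the brightest of its group, and only the pair of code 120P20 ran the other way. Fitted without normalization between arrays, the median log2 change of the members was 0.427, beside 96% of all tested probes on the higher side. With the authors' deposited values the member median was 0.466. There 77.9% were higher among the probes with enough deposited values to be fitted, which is another set of probes. Cyclic loess gave -0.041, with 49.3% of all tested probes higher. Scaling to the 75th percentile left 14% of all tested probes higher. let-7f, let-7g and let-7i lay on the higher side in each of these settings, whereas each of the other members changed side in at least 1 of them. All settings process the same 10 arrays, and how many of all tested probes kept the same side was not counted. The largest shift of the median over all tested probes was -0.280, under 75th percentile scaling. Over the probes fitted in the deposited values the median was 0.266. No member passed the threshold in any of these fits (limma, smallest adjusted p = 0.5579).

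**Figure D3:**
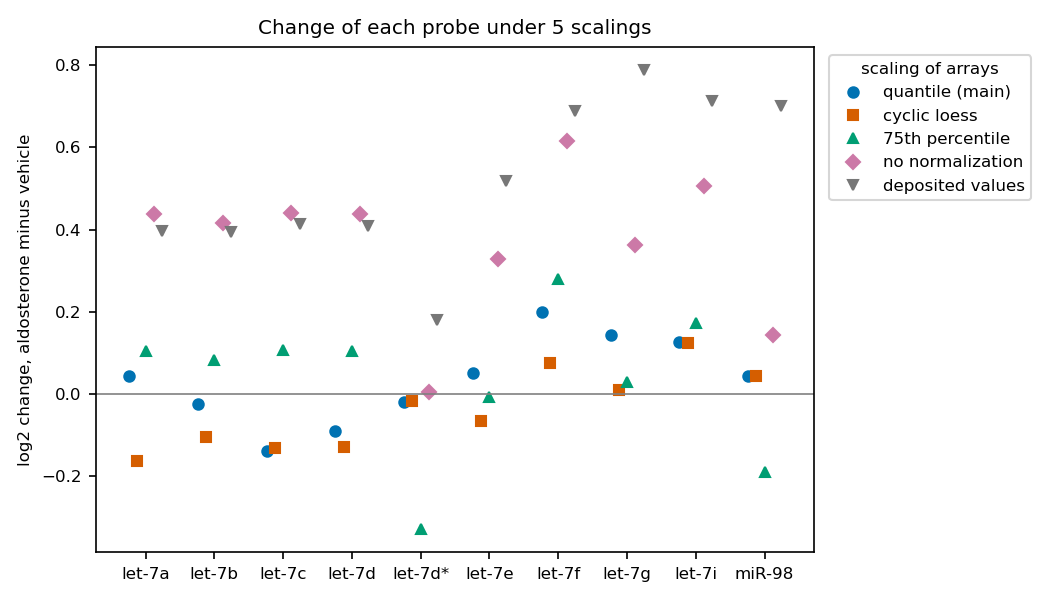
Log2 change of each member (vertical axis, aldosterone minus vehicle) under quantile normalization, cyclic loess, 75th percentile scaling, no normalization between arrays and in the authors' deposited values. let-7f, let-7g and let-7i are above 0 under all 5, and the points of the other members spread to both sides. This was counted for the members only.

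A ratio of 2 members within an array does not depend on a scale factor of that array, so each member was also set against let-7a on the log2 scale, from signals above blank, and only the change of that ratio was read. This comparison was added after the values had been seen and carries no test. For let-7c and let-7d the mean ratio hardly moved: the let-7c ratio differed by 0.02 ± 0.06 (aldosterone minus vehicle, SD over 5 pairs) and the let-7d ratio by 0.01 ± 0.12. The ratio of let-7b to let-7a differed by -0.002 ± 0.29 and that of let-7e by 0.12 ± 0.11, higher with aldosterone in 4 of 5 pairs. For let-7d*, near background, the ratio differed by -0.46 ± 0.98 and was lower in 3 of 5 pairs.

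Like let-7e, let-7f, let-7g, let-7i and miR-98 were brighter relative to let-7a on the aldosterone arrays in at least 4 of 5 pairs. For let-7i the difference was 0.37, 0.63, 0.31, 0.22 and 0.05 in the pairs 120P20, 1117P20, 107P19, 231 and 232, positive in 5 of 5, with a mean of 0.32 ± 0.21 (SD). For let-7g it was 0.32, 1.14, 0.22, 0.29 and -0.02 (mean 0.39 ± 0.44), and for let-7f 0.13, 1.15, 0.18, 0.26 and -0.25 (mean 0.29 ± 0.52). miR-98 gave 0.33, 0.92, 0.52, 0.01 and -0.26 (mean 0.30 ± 0.46). On the vehicle array of 1117P20 miR-98 lay only 2.77 units above blank, where the blank SD was 1.20, so its 0.92 rests on a signal near background. The pair of code 1117P20 was the highest for let-7f, let-7g, let-7i and miR-98. Without that pair the means were 0.24 for let-7i, 0.20 for let-7g, 0.08 for let-7f and 0.15 for miR-98. How many of all tested probes rose over let-7a was not counted. Before scaling, the mean log2 change over the 5 pairs was 0.50 for let-7a. For the 5 most alike probes outside the family, named below, it ran from 0.44 (miR-672) to 0.82 (miR-196b). Those 5 were picked for their likeness to the members on these same arrays. Among the tested miR-99, miR-100 and miR-125 probes, also described below and not picked that way, it ran from 0.28 (miR-99b) to 0.92 (miR-125a-3p). Rises larger and smaller than that of let-7a thus both occurred outside the family. The vehicle array of 1117P20 was also the dimmest of all 10 (9.47 units above blank in the median of the probes detected on all arrays), and the vehicle array of each pair was dimmer than its aldosterone array; the part of overall brightness in these ratios was not tested.

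**Figure D4:**
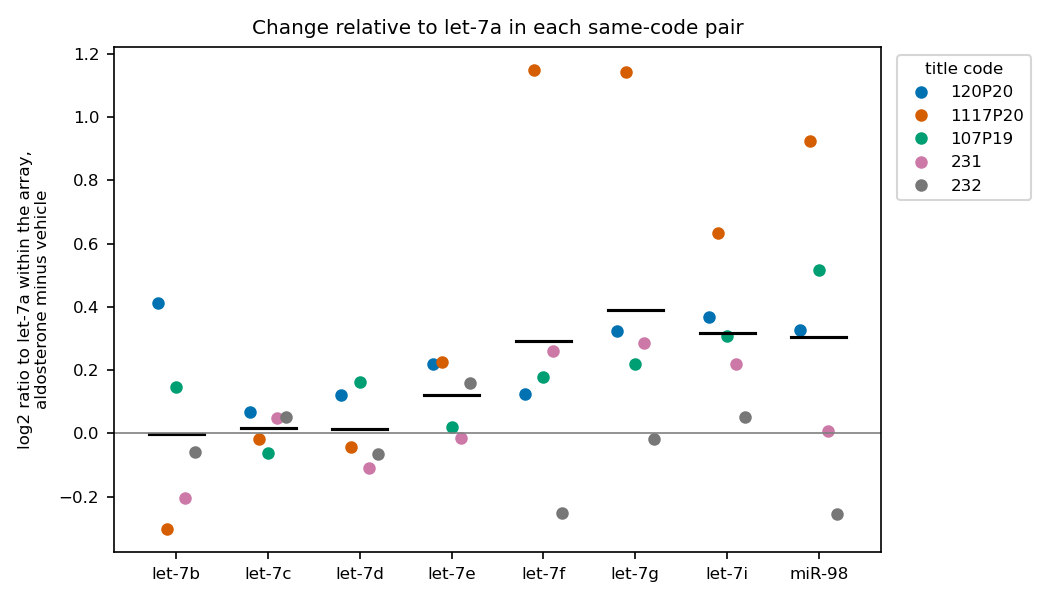
Change of the log2 ratio to let-7a within an array (vertical axis, aldosterone minus vehicle) for 8 members, with 1 point per same-code pair and a black bar at the mean of 5 pairs; let-7d*, detected on 6 of 10 arrays, is not drawn. let-7b, let-7c and let-7d have means near 0, and the point of code 1117P20 is the highest for let-7f, let-7g, let-7i and miR-98.

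Differences between title codes did not pass the threshold for any member after quantile normalization. In a limma F-test over the 5 codes, with treatment as a covariate, 0 of 10 members passed an adjusted p of 0.05, where 2.33% of all tested probes did. The lowest adjusted p among the members was that of let-7b (0.1858), and 4 members (let-7b, let-7d, let-7g and miR-98) had an unadjusted p under 0.05, as 19.1% of all tested probes had. Samples of code 107P19 were the highest for 7 of the 10 members, and those of 1117P20 or 231 were the lowest for 5 each. How many of all tested probes had this order was not counted, so it is not shown to be particular to the members. Before scaling, the arrays of 107P19 were the brightest of the aldosterone and vehicle groups (median 57.5 and 33.3 units above blank). Those of 1117P20 were the dimmest (15.2 and 9.47). miR-98 averaged 23.0 over the arrays of 107P19, 17.8 for 232, 16.5 for 120P20, 16.1 for 231 and 11.5 for 1117P20. The arrays of 107P19 lay above, and the vehicle array of 1117P20 below, all others, while the single arrays of 232, 120P20 and 231 overlapped.

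Without normalization between arrays 9 of 10 members passed, all but let-7d*, with 51.6% of all tested probes. In the deposited values 9 of 10 passed as well (29.8% of 336 probes with a value on every array), and under 75th percentile scaling 9, all but let-7g (94.9% of all tested probes). Cyclic loess left 2, let-7i (adjusted p = 0.04724) and miR-98 (adjusted p = 0.03732), with 11.6% of all tested probes.

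**Figure D5:**
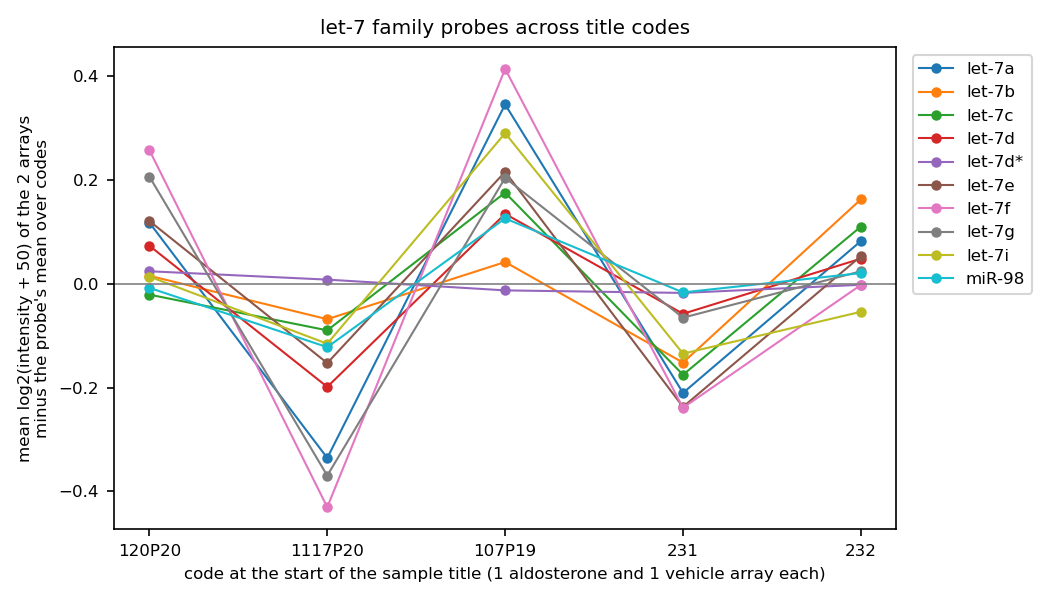
Mean log2(intensity + 50) of the aldosterone and vehicle array of each title code, after quantile normalization and relative to the mean of each member over the codes (vertical axis). Codes have no order, and lines only join the points of a member. Of the 10 members, 7 peak at 107P19, a count made for the members only, and let-7d* stays near 0.

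Of the 12 further probes for let-7, miR-98 or miR-202 strands, 4 were detected on no array, both strands of miR-202 among them. Only let-7b* and let-7e* reached 5 arrays. let-7b* averaged 5.12 ± 0.997 on aldosterone arrays and 5.76 ± 0.36 on vehicle arrays, and let-7e* 4.27 ± 1.69 and 4.26 ± 1.37 (SD, n = 5 each), neither past the threshold (limma adjusted p = 0.9375 and 1).

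Some let-7 hairpins lie in clusters with miR-99, miR-100 and miR-125 genes. Of 11 probes for those partners 7 were tested, 3 on the higher and 4 on the lower side, and 0 passed. Of the partners of let-7e, miR-99b averaged 49.0 ± 10.2 on aldosterone arrays and 63.2 ± 35.9 on vehicle arrays, and miR-125a-5p 44.3 ± 2.19 and 55.5 ± 25.6 (SD, n = 5 each). miR-125a-3p, the other strand of that hairpin, lay on the higher side, at 52.3 ± 8.76 on aldosterone arrays and 41.3 ± 9.72 on vehicle arrays, in 4 of 5 pairs (log2 change 0.17, SE 0.08; limma unadjusted p = 0.07163, adjusted p = 0.9375), and miR-99b* measured 6.93 ± 0.41 and 6.89 ± 1.66. In miR-99b and miR-125a-5p, the vehicle array of 1117P20 was the highest of its group (126 and 100.6), whereas it was the lowest for let-7f, let-7g, let-7i and miR-98. miR-99a, next to a let-7c hairpin, averaged 42.2 ± 9.49 on aldosterone arrays and 40.5 ± 17.2 on vehicle arrays, and miR-125b-5p, beside a let-7a hairpin, 50.0 ± 15.0 and 60.5 ± 18.5 (SD, n = 5 each).

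The 5 tested probes outside the family whose normalized log2 profile over the 10 arrays was most like the mean of the 9 fully detected members were miR-196a (Pearson r = 0.9728), miR-672 (0.953), miR-196b (0.9277), miR-16 (0.9134) and miR-10a* (0.901). These are the top of all tested probes outside the family and describe likeness only; the arrays share title codes and overall brightness. miR-16, which represses cell-cycle genes such as cyclins, averaged 365 ± 38.7 on aldosterone arrays and 326 ± 97.9 on vehicle arrays, and miR-196a, encoded in the Hox clusters, 19.1 ± 3.45 and 17.6 ± 6.95 (SD, n = 5 each).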

How the data were processed

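Total RNA (500 ng) was labelled with Hy5, per the labels' protocols; the scanner is not given in the sources used here. The authors deposited a raw intensity per spot, with 2 spots per probe. Per the deposited note, they subtracted the blank mean, called spots over it by 2 SD positive, averaged duplicates, gave their CV as a ratio of SD to mean, and scaled each array to a median of 25; that column was an alternative. Here raw intensity was corrected by normexp (offset 50), log2 spot values were averaged, and arrays were quantile-normalized (R 4.3.3, limma 3.58.1). The 4 spots marked as poor were left out. Mouse probes detected on at least 5 arrays were tested, 430 of 1040, with lmFit and eBayes, two-sided. The procedures were run on simulated data with less noise than these arrays, which does not show how small a change these arrays can detect. All members are named; cluster partners, other strands and the 5 most alike probes follow fixed rules. Members and lists were chosen with earlier results of these data known.

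Same-numbered arrays deviated together (r of 0.202 for code 232 to 0.814 for 107P19, and 9 of 10 arrays correlated best with their own number). The title codes were therefore treated as pairs in the paired comparisons. The labels do not state a pairing, and the part of shared array brightness in these correlations was not tested. The number of arrays limits precision. Tried were a replicate block, other scalings, backgrounds and filters, and leaving out arrays or pairs.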

Additional observations from a re-analysis of the deposited data

Results flagged for a closer look

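In 4 of 48 sets of 5 arrays (24 probes in 2 groups), 1 array stood far from the rest, where chance gives about 1 set in 20. For let-7d* it was aldosterone replicate 1, at 7.72 against a nearest value of 5.40 (gap 0.862 of the range). Vehicle replicate 2 stood out for miR-99b, at 126 against 58.8 (gap 0.719), and for miR-125a-5p, at 100.6 against 50.7 (gap 0.761). Vehicle replicate 1 stood out for miR-100, at 64.9 against 37.4 (gap 0.868). The cause was not tested.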

How the results depend on the processing

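The count of members changed by aldosterone was 0 under the replicate block, every other scaling, background and filter, and without any single array or pair (limma, smallest adjusted p = 0.5579). The replicate block, a paired fit, changed no call (0 members; smallest adjusted p = 0.7361). Members past the threshold across title codes numbered 0 under quantile normalization and also without any 1 pair. They numbered 9 without normalization between arrays, 2 under cyclic loess, 9 under 75th percentile scaling and 9 in the deposited values. Over all tested probes the counts were 10 under quantile normalization, 222 without normalization, 50 under cyclic loess and 408 under 75th percentile scaling. Without 1 pair they ran from 2 to 22. In the deposited values 100 of 336 probes passed. Log2 changes that turned were, without normalization, 0.4159 for let-7b, 0.4406 for let-7c, 0.4374 for let-7d and 0.004452 for let-7d*; under cyclic loess -0.1623 for let-7a and -0.06481 for let-7e; under 75th percentile scaling 0.0823 for let-7b, 0.107 for let-7c, 0.1038 for let-7d, -0.006176 for let-7e and -0.1889 for miR-98; and in the deposited values 0.3949 for let-7b, 0.4145 for let-7c, 0.4092 for let-7d and 0.1808 for let-7d*. The difference of let-7d* from let-7d, which mostly holds the offset, turned to -0.4329 without normalization and to -0.2283 in the deposited values. Scaling to the 75th percentile must give the same -0.4329, since it shifts both probes of an array alike. Without single arrays the difference ran from -0.000191 to 0.1184. Over pairs its exact sign-flip p was 0.25, in a test that cannot go below 0.0625. Without single arrays or pairs the log2 changes ran from -0.09467 to 0.1635 for let-7a, -0.08311 to 0.01428 for let-7b, -0.01918 to 0.1233 for let-7e and -0.001586 to 0.07588 for miR-98, and kept their sign for the other members. The causes were not tested. let-7d* could not be fitted in the filter for all 10 arrays, nor in 2 leave-out fits, where it was detected on too few arrays. Dim signal limits let-7d* most.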
